A study of Mus musculus with 2 samples.

Results

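The urea transporter genes *Slc14a2* and *Slc14a1* and the predicted gene *Gm12877*, which the array's annotation describes as similar to a urea transporter, were examined in kidney RNA of mice with a deletion of *Cnnm2*, which encodes a membrane protein of magnesium transport. The genes were chosen by symbol and were selected on measured ratios of these same arrays, because *Slc14a2* and *Gm12877* each had a probe with a high ratio, so their values are given as a description and no test was made on them. They are 3 of the 31829 gene names on the array, and every probe that carries these names was kept, which gave 4 of 39429 probes. The knockout sample was kidney RNA of Cnnm2fl/fl;Six2-Cre mice and the control sample was kidney RNA of Cnnm2+/+;Six2-Cre mice, both at 2 months of age. Both groups therefore carry *Six2-Cre*, whose promoter is active in the progenitors of the nephron and not in the ureteric bud, from which the collecting duct forms. Both RNA samples were put on each of 2 arrays of 2 colours. The knockout sample carried Cy5 on array 1 and Cy3 on array 2. The number of mice is not given in the sources used here, so both arrays together stand for 1 replicate per genotype, on the assumption that they carry the same RNA. Each ± below is the SD of the 2 arrays and covers labeling and hybridization only.

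Urea transporters let urea cross cell membranes down its gradient, and in the kidney they return urea from the collecting duct to the inner medulla, where it helps to concentrate urine. *Slc14a2* encodes the UT-A proteins, which are made from different promoters and splice forms of the gene. The long form UT-A1 and the form UT-A3 belong to the inner medullary collecting duct, and UT-A2 belongs to the thin descending limb of Henle's loop. *Slc14a1* encodes UT-B, found in red blood cells, in the descending vasa recta and in the urothelium.

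Ratios are given as log2 of the knockout over the control signal and use the processed signals, in which the scanner software has corrected background and dyes. On the arrays, 62.6% to 68.0% of gene spots were well above background in a channel. With 2 arrays, the precision of every ratio is limited. The probe of *Cnnm2* itself gave a log2 ratio of -2.88 on array 1 and of -2.46 on array 2, lower in the sample labelled as the knockout on both. Its place relative to the floxed exons is not given in the sources used here. The software calls a signal well above background or not, and 24583 probes had this call on each array for at least 1 genotype, the same one on both. Across these probes, the log2 ratios of the arrays had a Pearson correlation of -0.55, a description across probes, which are not independent replicates. The mean of both arrays had an SD of 0.23 over these probes, and the part of the ratio that changed sign with the dyes had an SD of 0.42. A probe was counted as changed where its mean log2 ratio was at least 1 in size and its direction was the same on both arrays. By this rule 77 probes were higher in the knockout sample, 0.313% of those compared, and 64 were lower, 0.26%. Of the 4 urea transporter probes, 2 were counted as higher and 0 as lower. Because the genes were chosen with these ratios known, nothing is read from this count. In RNA of whole kidneys, fewer cells of a type and less RNA per cell cannot be told apart.

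**Figure D1:**
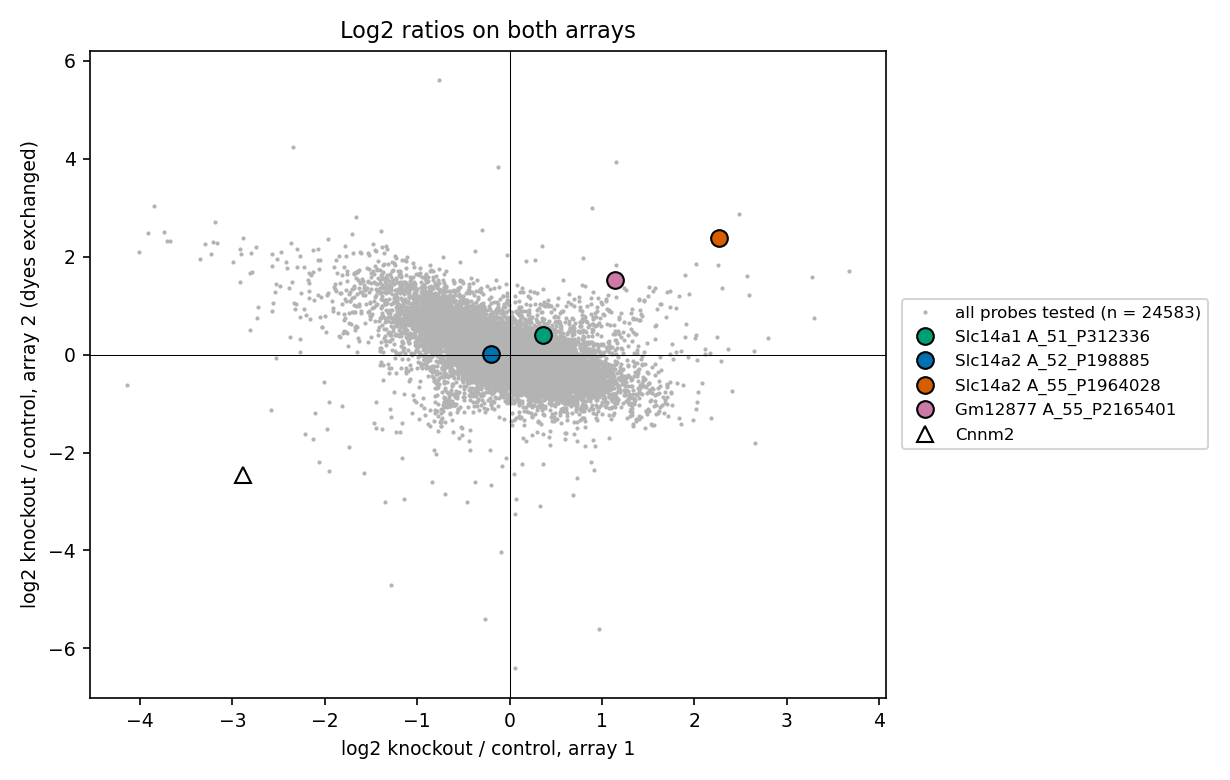
Log2 ratio of knockout over control on array 1 (x axis) and array 2 (y axis, dyes exchanged) for the 24583 probes compared (grey points), the 4 urea transporter probes (coloured circles) and *Cnnm2* (triangle). The cloud runs from upper left to lower right, while *Slc14a2* probe A_55_P1964028 (2.27 and 2.38) and *Gm12877* (1.14 and 1.52) lie at the upper right and *Cnnm2* lies at the lower left.

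*Slc14a2* was measured by 2 probes and *Slc14a1* by 1, all on chromosome 18 in the mm9 coordinates of the files. Probe A_55_P1964028 of *Slc14a2* lies at 78379981 to 78380040 and probe A_52_P198885 lies at 78342911 to 78342970. Probe A_51_P312336 of *Slc14a1* lies at 78298526 to 78298585. The files write the coordinates of these 3 probes from high to low, which is how they write the minus strand. This reading of the strand matched the strand in the RefSeq promoter table (another build) for 99.3% of 19930 probes whose genes the table holds. On the minus strand, A_55_P1964028 is 37.1 kb nearer to the start of the gene than A_52_P198885. The files annotate A_55_P1964028 to transcript variant 2 of *Slc14a2* (NM_030683) and also list NM_001110274 for it. They annotate A_52_P198885 to transcript variant 1 (NM_207651) and also list NM_001110273. These are the 4 curated transcripts of the gene in the RefSeq table (GRCm38.p6), and each is listed for only 1 of the probes. The files assign neither probe to a UT-A protein or to an exon, and no assignment was made here.

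The probes of *Slc14a2* gave different ratios. For A_55_P1964028, the processed signal on array 1 was 807 for the knockout sample against 168 for the control sample. On array 2 it was 758 against 146. Both knockout values were above both control values, whichever dye the knockout sample carried. The log2 ratios were 2.27 and 2.38, with a mean of 2.32 ± 0.08 (SD, n = 2 arrays), a 5.00-fold higher signal. This was number 6 from the highest among the 24583 probes. The within-array error that the scanner software attaches to these ratios was 0.29 and 0.30 on the log2 scale. Before background subtraction, the signal of this probe stood at up to 32.6 times the local background for the knockout sample and at 5.89 and 8.31 times for the control sample.

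For A_52_P198885, the processed signal on array 1 was 3794 for the knockout sample against 4364 for the control sample. On array 2 it was 3485 against 3438. The values of the genotypes overlapped, and the direction differed between the arrays. The log2 ratios were -0.20 and 0.02, with a mean of -0.09 ± 0.16 (SD, n = 2 arrays). This probe was far above the local background in every channel, by up to 186 times, and its scanner errors were 0.20 on each array. Signals of different probes depend on how each probe hybridizes, so the levels of both *Slc14a2* probes were not set against each other.

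**Figure D2:**
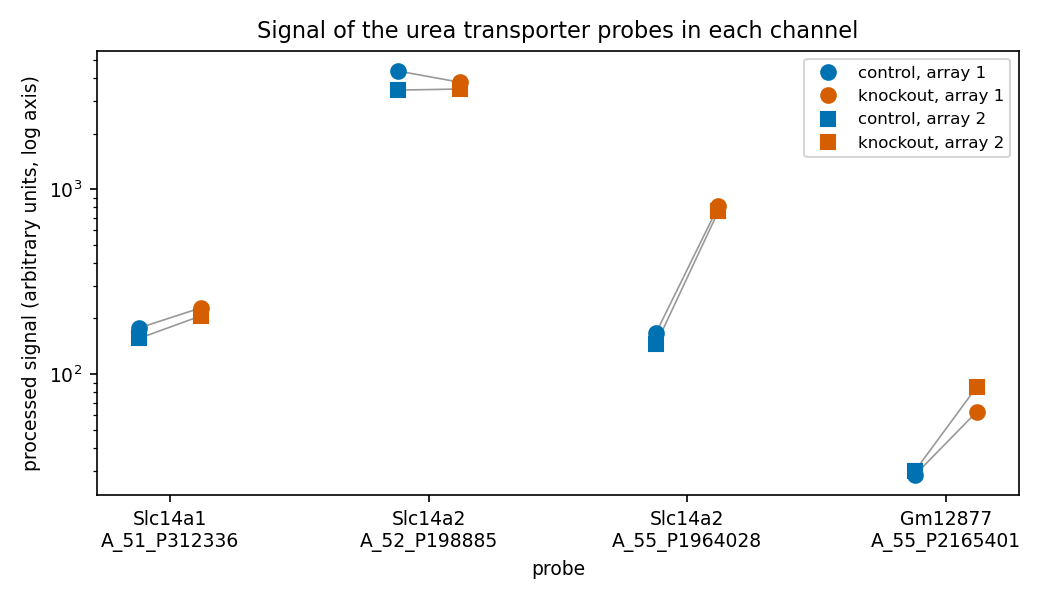
Processed signal (y axis, arbitrary units, log axis) of the 4 urea transporter probes (x axis) in the control (blue) and knockout (orange) channels of array 1 (circles) and array 2 (squares), with lines joining the channels of an array. The knockout signal of A_55_P1964028 is 807 and 758 against 168 and 146 in the control channels, and the lines of A_52_P198885 are nearly flat. Heights are not comparable between probes.

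The log2 ratios of A_55_P1964028 and A_52_P198885 differed by 2.47 on array 1 and by 2.36 on array 2, with a mean difference of 2.41 ± 0.08 (SD, n = 2 arrays). The part of the ratio that changed sign with the dyes was -0.06 for A_55_P1964028 and -0.11 for A_52_P198885. With normexp background correction (an offset of 50 added to each channel) and loess, the difference was 1.58 and the log2 ratio of A_55_P1964028 was 1.52. For scale, 3914 gene names had at least 2 probes with a signal well above background in all 4 channels, and the widest difference of mean log2 ratio between their probes had a median of 0.11 and a 90th percentile of 0.35. In 12 of them, or 0.307%, the widest difference was at least 1. *Slc14a2* had the widest difference of the 3914. Each array alone placed it at number 7 (array 1) and number 9 (array 2), and it was number 3 of 4101 gene names where probes above background for only 1 genotype also counted. As *Slc14a2* was chosen with the high ratio of A_55_P1964028 known, nothing is read from these places.

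**Figure D3:**
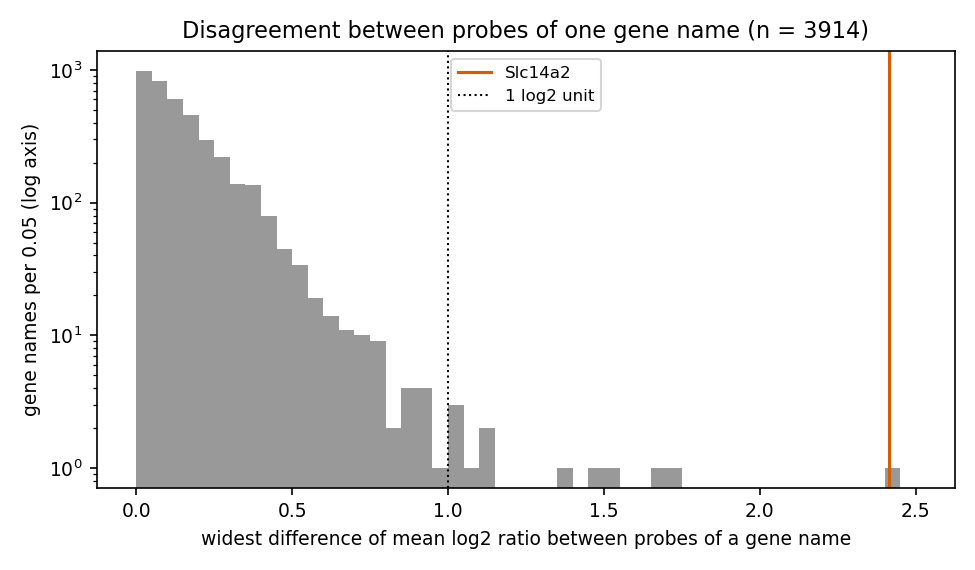
Number of gene names (y axis, log axis) by the widest difference of mean log2 ratio between their probes (x axis, log2 units, bins of 0.05), over 3914 gene names. The orange line marks *Slc14a2* at 2.41 and the dotted line marks 1 log2 unit, which 12 gene names reach.

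The next gene names in this order were *Abcf1* (1.75), *Mapk8* (1.67), *1810037I17Rik* (1.54) and *Fga* (1.48), each value being the widest difference of mean log2 ratio. They differed in how far the arrays matched. The higher *Abcf1* probe had log2 ratios of -0.12 and 3.84, so its mean came from array 2. In *1810037I17Rik*, 2 of 3 probes had ratios between 1.29 and 1.58 on each array, and the other probe had -0.01 and -0.15. *Fga*, a fibrinogen chain, had 1.91 and 0.63 for its higher probe. *Mapk8*, a stress-activated kinase, had mean log2 ratios from -1.45 to 0.22 over 3 probes.

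*Slc14a1* had a small ratio in the same direction on both arrays. The processed signal of its probe on array 1 was 228 for the knockout sample against 178 for the control sample. On array 2 it was 207 against 156. Both knockout values were above both control values. The log2 ratios were 0.36 and 0.41, with a mean of 0.38 ± 0.03 (SD, n = 2 arrays), a 1.30-fold higher signal that does not reach the size used for a count. It was number 779 from the highest of 24583 probes, and the scanner error was 0.21 on each array. With normexp and an offset of 50 the log2 ratio was 0.20. The signal stood at 5.54 to 8.38 times the local background over the channels.

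The cells in which UT-B is known gave these values beside that of *Slc14a1*. Counts over gene lists use the brightest probe of each gene name, and of the 19697 brightest probes compared on the whole array, 0.315% were higher and 0.284% were lower. Of 10 urothelium genes, 10 were compared and 0 were counted as changed, but all 10 means were above 0, from 0.03 (*Trp63*) to 0.87 (*Upk1b*, a uroplakin), with a median of 0.58 against -0.01 over the brightest probes of all gene names compared. Over all 19697, 9385 means were above 0. With normexp and an offset of 50, all 10 urothelium means were also above 0, with a median of 0.23. In that setting 11297 of the 19697 were above 0, with a median of 0.01. Their summed processed signal for knockout against control was 7695 against 5809 on array 1 and 6041 against 5930 on array 2. *Trp63*, which had the lowest mean of the list, alone gave 4648 against 3680 and 3396 against 4134. Most of each sum therefore came from that gene. On array 2, however, the sum was higher in the knockout sample while *Trp63* was lower. Of 9 markers of the descending vasa recta and kidney endothelium, 9 were compared, 0 were counted as changed and the median log2 ratio was -0.08, from -0.34 (*Cdh5*) to 0.06 (*Emcn*). Their summed signal for knockout against control was 79246 against 73494 on array 1 and 60103 against 64985 on array 2. *Aqp1*, which is also a gene of the proximal tubule, alone gave 54890 against 44391 and 37001 against 43315. Of 10 red blood cell genes, 7 were compared and 0 were counted as changed, with a median of -0.18 and values from -0.22 (*Hbb-b2*) to 0.71 (*Epb4.2*, with 1.38 and 0.04 on the arrays), and *Kel*, *Rhag* and *Rhd* were not well above background. The summed signal of the red cell genes was 130593 against 126941 on array 1 and 94119 against 119765 on array 2. *Hba-a1* alone gave 82556 against 69228 and 53195 against 74265. The part of the cells above in the *Slc14a1* ratio was not tested.

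**Figure D4:**
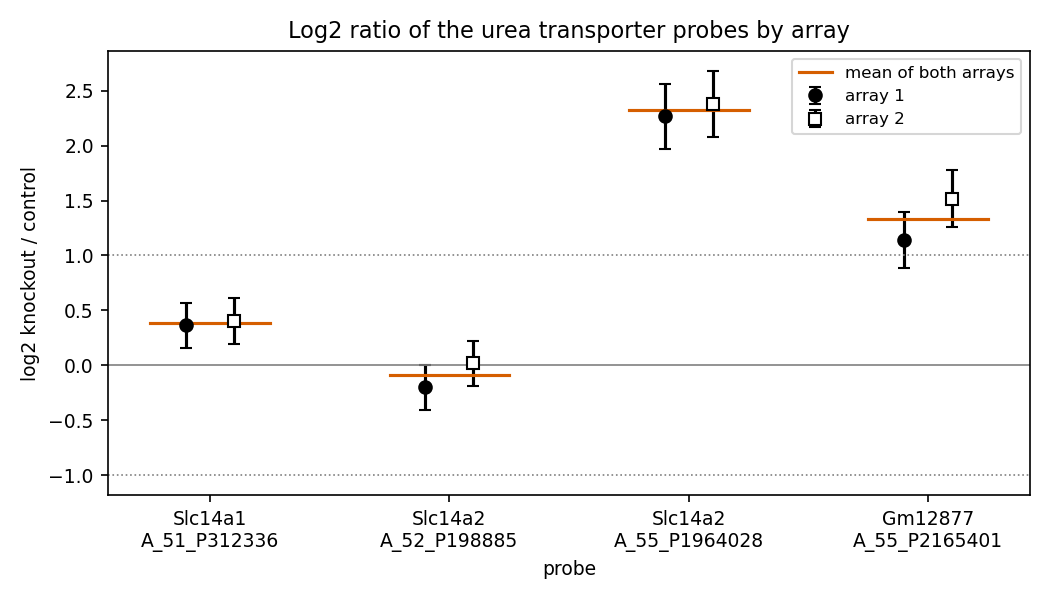
Log2 ratio of knockout over control (y axis) of the 4 urea transporter probes (x axis) on array 1 (filled circles) and array 2 (open squares), with the within-array error of the scanner software as bars and the mean of both arrays as an orange line. Dotted lines mark a log2 ratio of 1 in either direction, which the means of A_55_P1964028 (2.32) and *Gm12877* (1.33) pass, and the bars of *Gm12877* on array 1 reach below it.

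*Gm12877* is a predicted gene that the files annotate as similar to a urea transporter (XM_001474302), and it was not found in the RefSeq table. Its probe A_55_P2165401 lies at chr4:122259931-122259990 on mm9, on the minus strand, and is shown because the annotation of the gene rests on a prediction. Capitals mark the longest run of bases that it shares with any other gene probe on the array.
A_55_P2165401: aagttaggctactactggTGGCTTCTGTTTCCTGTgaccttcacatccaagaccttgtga
Read from its first base in triplets, the probe holds 0 stop codons before a last triplet that is one. The run in capitals is 17 bases long and is shared with a probe of *Dnlz*, a mitochondrial chaperone partner, whose log2 ratios were -0.16 and 0.05. The longest run shared with a probe of *Slc14a1* or *Slc14a2* was 8 bases.

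The processed signal of the *Gm12877* probe on array 1 was 62.6 for the knockout sample against 28.4 for the control sample. On array 2 it was 85.4 against 29.8. Both knockout values were above both control values. The log2 ratios were 1.14 and 1.52, with a mean of 1.33 ± 0.27 (SD, n = 2 arrays), a 2.51-fold higher signal and number 31 from the highest. The probe was dim. It was called well above background in all channels, at 2.45 to 4.74 times the local background, and the scanner errors were 0.26 on each array. The ratio depended on the processing. It was 0.69 with no background correction and 0.27 with normexp and an offset of 50, and neither reaches the size used for a count. Both of these settings also used loess in place of the dye correction of the software. With background-subtracted signals, median centred, the ratio was 1.36.

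**Figure D5:**
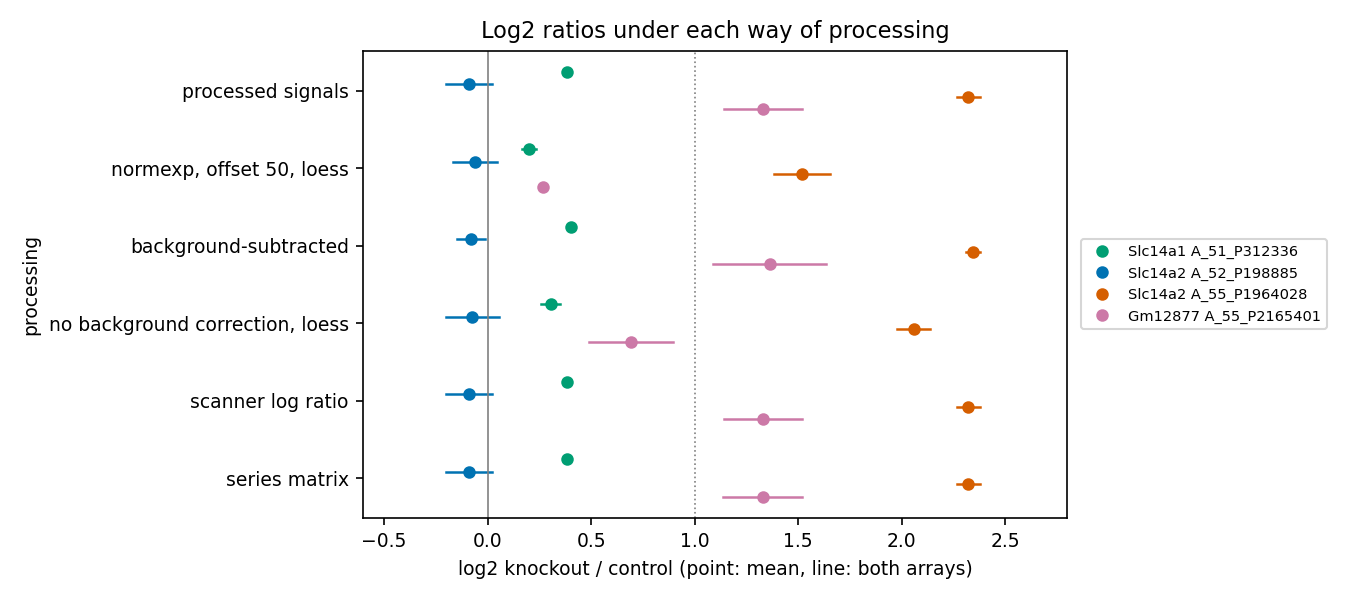
Log2 ratio of knockout over control (x axis) of each urea transporter probe under 6 ways of processing (y axis), with points for the mean and lines joining the arrays. The scanner and series matrix ratios restate those of the processed signals. A_55_P1964028 stays above 1 throughout, from 1.52 to 2.34, while *Gm12877* falls from 1.33 to 0.27 with normexp and an offset of 50.

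Genes near the urea transporter genes gave these values. Within 1 Mb of the *Slc14a1* and *Slc14a2* probes, 11 probes of 10 other gene names were compared, with 0 counted and a median log2 ratio of 0.04. The values ran from -0.34 (*Loxhd1*) to 0.41 for a probe of *Pstpip2*, whose other probe had 0.19. Within 1 Mb of the *Gm12877* probe, 15 probes of 14 gene names were compared, with 0 counted. Their median was -0.02, and they ran from -0.42 (*Mycl1*) to 0.27 (*Trit1*). On the arrays, this *Mycl1* probe had 0.37 and -1.20 and this *Trit1* probe had -0.35 and 0.90, so both changed direction with the dyes. The other *Trit1* probe had a mean of 0.18. Since 0.313% of all probes compared were counted as higher and 0.26% as lower, counts of 0 among so few probes say nothing particular about these neighbours.

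The probes with the pair of log2 ratios most like that of A_55_P1964028 were sought by the distance between the pairs over the 2 arrays, among probes well above background in all 4 channels. The nearest probe was that of *Aldh1a3*, an enzyme of retinoic acid synthesis, with 2.02 and 1.86 and a distance of 0.58. *Pdia2*, a protein disulfide isomerase, had 2.57 and 1.61 (distance 0.82) and *Gcnt3*, which builds mucin-type glycans, had 1.89 and 1.62 (distance 0.85). *Meox2*, a homeobox factor, had 2.30 and 1.36, and *Pi4k2b*, a lipid kinase, had 1.94 and 1.25. Each of these ratios was larger on array 1 than on array 2, whereas that of A_55_P1964028 was larger on array 2.

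Urea transport in the collecting duct is switched on by vasopressin, which acts through the receptor *Avpr2* and cyclic AMP. Of 14 genes of vasopressin and cyclic AMP signaling to urea transporters, 13 were compared and 0 were counted as changed, with a median log2 ratio of -0.11. *Avpr2* had 0.12 and -0.05 on the arrays, and the adenylyl cyclase *Adcy6* had -0.37 and 0.15. *Adcy3* was not well above background. Of 11 genes of urea handling and the urea cycle, 7 were compared and 0 were counted as changed, with a median of 0.00. *Arg2*, the mitochondrial arginase, had 0.13 and -0.12, and *Odc1*, which starts polyamine synthesis from ornithine, had 0.35 and 0.50. *Arg1*, *Cps1*, *Nags* and *Otc* of the urea cycle were not well above background.

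Aquaporins carry water in the same segments, drawn by the gradient that urea helps to build. Of 10 water channel genes, 9 were compared, and 1 was counted as higher and 0 as lower, with a median log2 ratio of 0.02. *Aqp9* was not well above background. The higher gene was *Aqp5*, with 1.42 and 0.84, whose mean was 0.21 with normexp and an offset of 50. Its probe was dim, with a processed signal of 63.0 for knockout against 23.5 for control on array 1. On array 2 it was 49.4 against 27.7. The other *Aqp5* probe had a mean of 0.999, just under the size used for a count. *Aqp2*, the vasopressin-regulated channel of the collecting duct, had -0.75 and 1.09, so its direction changed with the dyes. *Aqp1*, of the proximal tubule and thin descending limb, had 0.31 and -0.23. Of 10 genes known to rise with tonicity, 9 were compared, 1 was counted as higher and 0 as lower, with a median of -0.04, and *Hspa1b* was not found under that name. The higher gene was *Akr1b3*, the aldose reductase that makes sorbitol, with 1.40 and 1.13, and its other probe had a mean of 1.25. It was counted as higher under every background setting run. The betaine transporter *Slc6a12* had 0.62 and 0.18 and the myo-inositol transporter *Slc5a3* had 0.12 and -0.39. *Nfat5*, the factor that drives these genes, had 0.65 and -0.53. *Sgk1* had 0.67 and 0.40, and 4 of the 9 means in this list were above 0.

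Markers of the cells in which UT-A proteins are known were also measured. Of 9 genes listed for the inner medullary collecting duct, 8 were compared and 0 were counted as changed. The median log2 ratio was 0.23, with values from -0.19 (*Aqp3*) to 0.72 (*Elf5*), and *Sh2d4b* was not well above background. Not all of these genes are particular to that part of the duct. Their summed processed signal for knockout against control was 39593 against 49381 on array 1 and 43318 against 33329 on array 2, so the direction of the sum changed with the dyes. Most of each sum came from *Fxyd4*, *Aqp3* and *Aqp2*. Of 8 genes of the thin limbs, 7 were compared and 0 were counted as changed, with a median of 0.11 and values from -0.12 (*Fst*) to 0.59 (*Cryab*), and *Sptssb* was not found under that name. The summed signal of the thin limb genes was 75784 against 59343 on array 1 and 55654 against 55709 on array 2. Most of each of these sums came from *Aqp1*, which is also a gene of the proximal tubule. The collecting duct list shares *Aqp2*, *Aqp3* and *Aqp4* with the water channel list, and the thin limb and vasa recta lists share *Aqp1* with it. The part of these cells in the ratios of *Slc14a2* and *Gm12877* was not tested.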

How the data were processed

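The authors deposited scanner files from Agilent Feature Extraction, for which the file headers give version 10.7.3.1 and the submitters' processing notes give 10.5.1.1. Per the file headers, the processed signal intensity was corrected for background and dyes within each array, and probe positions are on mm9. The authors also deposited log10 ratios, in the scanner files as red over green and in the series matrix as knockout over control (within 0.00492 of the scanner values once turned by the dyes). The matrix columns had a median of 0. From the processed intensities, log2 ratios of knockout over control were taken per spot, after leaving out controls and any spot that the software marked as an outlier, and averaged over the spots of a probe and over the arrays. Probes had to be called well above background on each array for 1 genotype at least, the same on both. List counts used the brightest probe of a gene name. The thin limb and red blood cell lists each leave out 1 gene that is not reported here. The genes and lists were chosen with earlier results of these data known. The text names all probes of the 3 genes, *Cnnm2*, list genes, the 5 gene names with the widest probe difference, the 5 nearest probes and genes within 1 Mb. *Dnlz* was named after its sequence match was seen. No test compared the genotypes, which have 1 replicate each. The paired test of the methods, with a threshold of 0.1, and limma 3.58.1 were alternatives. The code, in Python 3.11.15 and R 4.3.3, was tested on simulated data.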

Additional observations from a re-analysis of the deposited data

How the results depend on the processing

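The mean log2 ratios of all 4 probes stayed within 1 SD of the 2 arrays from their main values in 4 settings. These were the log10 ratios of the matrix, those of the scanner, marked spots kept, and background-subtracted signals (floor of 1, median centred). The matrix and scanner ratios restate those of the processed signals apart from rounding, and no spot of these probes was marked. Those settings therefore could not move the values, and only the background-subtracted signals were a different treatment. Each array alone gave 2.27 to 2.38 for the higher *Slc14a2* probe, -0.20 to 0.02 for the brightest, 2.36 to 2.47 for their difference, 0.36 to 0.41 for *Slc14a1* and 1.14 to 1.52 for *Gm12877*. With normexp (offset 50) and loess, the log2 ratios were 1.52 for the higher *Slc14a2* probe, 0.20 for *Slc14a1* and 0.27 for *Gm12877*, and the *Slc14a2* difference was 1.58. With no background correction and loess, they were 2.06, 0.30 and 0.69, and the difference was 2.13. The offset, or the background left in, adds to both channels and draws ratios of dim probes toward 0. Both settings also used loess in place of the dye correction of the software, and these changes were not separated. The 77 probes counted as higher and 64 as lower became 12 and 9 with normexp, 17 and 13 with no background correction, 290 and 222 when dim probes were let in, 43 and 30 when well above background in both genotypes, and 35 and 24 at 2-fold on each array. Either array alone gave 944 to 1344 higher and 936 to 1050 lower. The methods' test gave 28 and 19, and 0 and 0 after Benjamini-Hochberg adjustment, with 579 probes below 0.05 before it. limma gave 0 and 0, with 271 probes below 0.05 before adjustment. Both tests treat the 2 arrays as replicates, so their values cover labeling and hybridization only and do not test the genotypes. The 12 gene names with probes at least 1 apart became 4 with normexp, 4 with no background correction, 26 with probes well above background in the same genotype, and 425 to 430 on each array alone. Every ratio is already paired within an array. The number of arrays, and for *Gm12877* the signal over background, limit these values.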
